A study of Mus musculus with 399 samples.

Results

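Liver transcripts of male and female mice were compared at 5 weeks of age on chow, in 24 of the 399 libraries of a series on 2 inbred strains. The comparison took every liver library labelled 5 weeks and chow, 12 from males and 12 from females, with 6 libraries in each of 4 groups. The groups were male and female mice of C57BL/6J (B6), a common reference strain, and of TALLYHO/Jng (TH), an inbred strain that becomes obese and diabetic. All were weaned onto chow at 4 weeks and killed after 1 week on it, and the labels name no transgene, drug or surgery. Each library also carries a sample number. Those of the 12 B6 libraries are consecutive and change back and forth between the sexes, and those of TH form 2 runs parted by a gap, the earlier with 3 females and 4 males and the later with 3 females and 2 males. The labels do not say what the runs stand for, nor whether litters or cages were shared. A further 2 sets of 24 liver libraries from the same sexes and strains were read beside these: mice at 20 weeks of age after 16 weeks on chow, and mice at 5 weeks after 1 week on a high-fat diet. Only autosomal genes are reported.

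In rodents the liver differs between the sexes mainly through the pattern of growth hormone release. Males secrete the hormone in pulses with quiet intervals and females secrete it almost continuously. The hormone binds its receptor on hepatocytes, the kinase Jak2 activates the transcription factor Stat5b, and Stat5b works with sex-biased repressors, Bcl6 in males and Cux2 in females, to set male-type or female-type programmes of P450 enzymes, sulfotransferases and secreted urinary proteins. These programmes are known to separate around puberty, the period in which 5-week-old mice lie.

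Total counts ran from 8285306 to 12267829 in the males and from 12205564 to 17542373 in the females, so that depth moved with sex. The sex transcripts Xist and Ddx3y matched the label of all 24 libraries. The slope of a library's log2 expression on gene GC content also moved with sex: it ran from -1.92 to -0.54 in males (median -1.36) and from -1.15 to 0.86 in females (median -0.30), in log2 units per unit of GC fraction. The 11 skeletal muscle markers summed to a median of 0.727 CPM, counts scaled to a common library total, in males and 0.914 in females, but Acta1, the actin of skeletal muscle, exceeded 10 CPM in 4 female libraries (B6 replicates 1 and 6, TH replicates 2 and 3) and 1 male library (B6 replicate 4). Female TH replicate 4 stood apart, with Gbp2, an interferon-induced GTPase gene, at 261 CPM against 1.87 to 9.43 in the other 23. Hepatocyte markers were the most abundant of the cell-type lists in all 24 libraries, with sums of 49099 to 62744 CPM in males and 38944 to 48292 in females. In the test described below 7 of the 10 (70%) were called higher in males, against 9.94% of all genes. Their log2 differences were small, at 0.29 (Apoa2) to 0.47 (Apoa1). In bulk liver, fewer cells of a type and less RNA per cell cannot be told apart.

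At 5 weeks 3009 of 15141 autosomal genes tested passed an adjusted p of 0.05 (Benjamini-Hochberg) in edgeR's quasi-likelihood test with strain as a covariate. They were 1505 genes higher in males, 9.94% of those tested, and 1504 lower, 9.93%. Most differences were small: the median absolute log2 difference of a called gene was 0.30, and 106 genes were higher and 143 lower in males by at least 2-fold. In 29 genes every male library lay above every female library, and in 27 genes every female library lay above every male one. With each library's GC slope as a covariate the calls fell to 647, of which 403 (62.3%) were higher in males, against 50% of the 3009. Because GC slope and depth moved with sex, their part in the small differences cannot be told apart from that of sex. Without the 5 libraries that held muscle transcripts, the remaining 19 gave 1533 calls.

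TH females of the 2 runs of sample numbers differed from each other. In edgeR's test 1687 of 15141 autosomal genes, 11.1%, were called between the 3 females of the later run (replicates 4 to 6, among them the female that stood apart) and the 3 of the earlier run. Between the TH males 13 genes were called, 0.0859%, with 2 libraries in the later run. Males and females of TH differed in 1138 genes (7.52%) within the earlier run and in 655 (4.33%) within the later. The test of whether the sex difference itself differed between the runs called 0 genes, with 1573 at an unadjusted p under 0.05. With the run as a covariate, an alternative added after seeing the data, the sex difference gave 3411 calls in place of 3009, and Socs2 alone of the 54 genes followed library by library lost its call. What separated the runs was not tested.

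Most genes of a list of male-biased genes of adult liver were already higher in 5-week males. The list was chosen with earlier results of these data known, which can favour such calls. Of 27 members of that list with enough counts, 24 (88.9%) were called higher in males, against 9.94% of all genes, and none lower. Their median log2 difference was 1.67, over all 27, against a median of -0.01 over all autosomal genes. With the GC slope as a covariate 20 of the 27 were called higher. Members not called were Sult5a1 at -0.43, Hsd17b2 at 0.03 and Susd4 at 0.34.

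Elovl3, which elongates very long chain fatty acids, showed the largest rise among the genes that had the same sign in both strains. It was at 16.4 to 206 CPM in B6 males (median 117) and 268 to 660 in TH males (median 449). Females held 1.67 to 12.1 CPM in B6 (median 5.95) and 1.64 to 43.7 in TH (median 8.34). The sexes did not overlap within either strain, but the highest TH female exceeded the lowest B6 males. TH females of the earlier run held 1.64 to 3.36 CPM and those of the later run 13.3 to 43.7 (log2 3.48 ± 0.84, adjusted p = 0.010). The log2 difference was 4.56 ± 0.52 (adjusted p = 6.1e-07).

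Mup20, the urinary pheromone protein also called darcin, was at 1080 to 2596 CPM in B6 males and 2285 to 3804 in TH males, and at 111 to 254.4 in B6 females and 107 to 278 in TH females. No male library came near a female one, and the log2 difference was 3.68 ± 0.19 (adjusted p = 1.7e-13). Mup21 was at 64.8 to 247.1 CPM in males and 18.1 to 43.8 in females and differed by 2.16 ± 0.13 (adjusted p = 7.6e-12). Each of the 22 major urinary protein genes tested was called higher in males, against 9.94% of all genes. Their log2 differences ran from 0.70 (Mup22) to 3.68 (Mup20). These genes encode closely related lipocalins that carry pheromones, and their near-identical copies can share reads, so the 22 calls are not independent. Mup7 overlapped between the sexes in B6, at 899 to 5680 CPM in males and 1108 to 1551 in females. On the mean log2 level of the 22 genes, B6 male replicate 6, at 8.66, lay below every B6 female, at 8.70 to 9.195. The other B6 males lay above these females, at 9.82 to 10.6. In TH the sexes did not overlap on this mean, at 10.83 to 11.54 in males and 9.22 to 10.05 in females.

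Enzymes of the male programme were graded by strain. Cyp4a12a, a P450 that hydroxylates arachidonic acid, was at 161 to 402 CPM in B6 males (median 299) and 1009 to 1161 in TH males (median 1081). Its level was 1.33 to 19.1 in B6 females (median 5.33) and 79.1 to 387 in TH females (median 269), so that TH females reached the range of B6 males. The log2 difference was 3.63 ± 0.47 (adjusted p = 4.6e-06), and its copy Cyp4a12b differed by 3.68 ± 0.43. The TH females at 325 to 387 CPM were those of the later run of sample numbers, and those of the earlier run were at 79.1 to 212. The log2 sex difference in TH was 3.12 ± 0.48 within the earlier run (adjusted p = 1.8e-04) and 1.62 ± 0.51 within the later one (adjusted p = 0.070). Hsd3b5, a ketosteroid reductase found mainly in male liver, had the same order: medians of 381 CPM in TH males, 178 in B6 males, 86.4 in TH females and 4.85 in B6 females, with a log2 difference of 3.11 ± 0.46 (adjusted p = 3.0e-05). TH females were at 36.3 to 58.1 CPM in the earlier run and 115 to 191 in the later one, and within the later run the log2 sex difference of 1.41 ± 0.61 was not called (adjusted p = 0.20).

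Gstp1, a glutathione transferase, was at 676 to 2122 CPM in males and 174 to 586 in females, with no overlap, and its log2 difference of 2.08 ± 0.10 (adjusted p = 2.7e-14) was nearly the same in B6 at 2.06 and in TH at 2.10. Cyp2d9, a male-specific P450 that hydroxylates steroids, differed by 1.80 ± 0.15. C6, a component of the membrane attack complex of complement, differed by 2.06 ± 0.24, with medians of 118 and 644 CPM in B6 and TH males and 16.7 and 246.9 in B6 and TH females. The acetyltransferase gene Nat8f5, Hsd3b4 and the secreted serpin Serpina12 completed the largest rises at log2 differences of 3.65, 2.48 and 2.44.

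Rises in 3 further genes were uneven. Obp2a, an odorant-binding lipocalin, was at 8.26 to 55.1 CPM in TH males and at or below 0.429 CPM in every other library. Its log2 difference of 6.55 ± 0.60 was carried by TH, and with 1 mean per group it was not called (log2 3.46, adjusted p = 0.094). Tff3, a secreted trefoil peptide, was at 3.00 to 22.7 CPM in B6 males and at most 1.25 in the other groups. Its log2 difference of 3.47 missed the threshold with 1 mean per group (2.17, adjusted p = 0.10) and with all 96 liver libraries (2.16, adjusted p = 0.17). Cyp21a1, the steroid 21-hydroxylase of the adrenal cortex, rested on male B6 replicate 6, at 42.2 CPM against at most 2.08 in the other 23 libraries, and it was not called without that library.

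**Figure D1:**
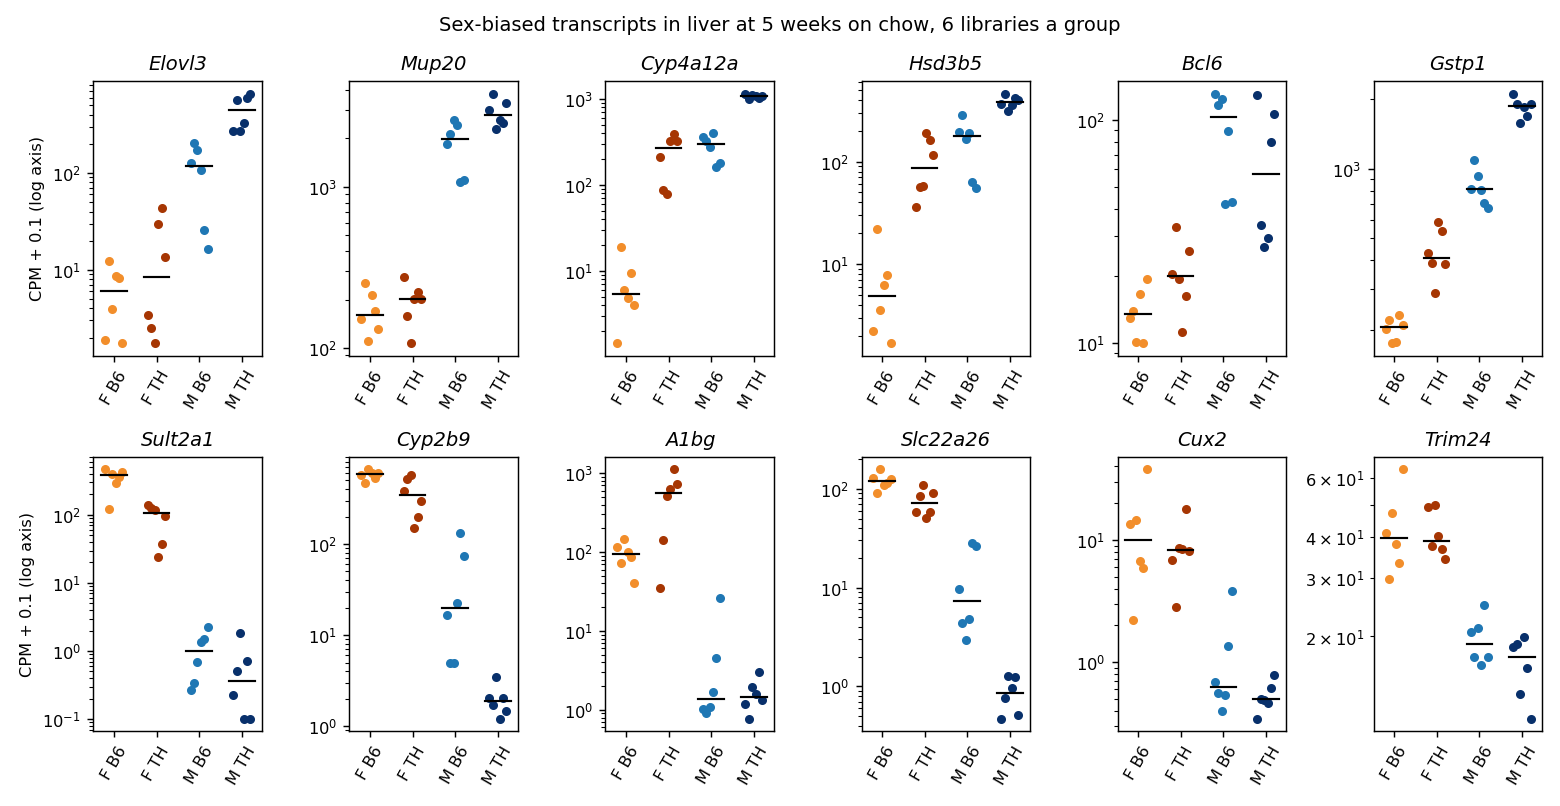
Level of 12 sex-biased transcripts in each liver library at 5 weeks on chow, as CPM plus 0.1 on a log axis, by sex (F, M) and strain, with a line at each group's median. Mup20, Gstp1, Sult2a1, Cyp2b9, A1bg, Slc22a26 and Trim24 separated the sexes completely, and TH females lay near B6 males for Cyp4a12a and Hsd3b5.

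Most genes of a list of female-biased genes of adult liver were already lower in 5-week males. This list too was chosen with earlier results of these data known. Of 36 members of the female-biased adult list with enough counts, 30 (83.3%) were called lower in males, against 9.93% of all genes, and 2 higher. The median log2 difference of the 36 was -1.34. With the GC slope as a covariate 23 were called lower. The 2 that were higher in males were Cib3, a calcium- and integrin-binding protein, at 1.83 ± 0.25 and Cyp3a16, a P450 of young mice, at 0.54.

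Most sulfotransferases of the Sult2a family, which sulfate steroids and bile acids, were at or near 0 in males, the exceptions being Sult2a7 and Sult2a8. Sult2a1 was at 0.170 to 2.19 CPM in B6 males and 0 to 1.71 in TH males, against 121 to 470 in B6 females and 23.9 to 141 in TH females. Its log2 difference was -8.24 ± 0.43 (adjusted p = 1.9e-13), and the female groups differed in level by strain, with medians of 384 and 108 CPM. Sult2a2 and Sult2a5 showed log2 differences of -7.75 and -8.06.

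Sult2a4 had 2 counts over the 12 males, against medians of 16.4 and 11.4 CPM in B6 and TH females, a depth-adjusted female-to-male ratio of 728 with an exact 95% interval of 201 to 6019. Sult2a6 had no count in any male and 583 in the females, so that it was at least 136-fold higher in females against a floor of 3 counts over the male group. These intervals cover counting error only. Sult2a3 had 1 count over the males and 300 over the females. Sult2a7 was at 0.103 to 2.59 CPM in males and 0.664 to 8.59 in females, a log2 difference of -1.45 ± 0.34 (adjusted p = 4.2e-03). Near-identical copies in the family can share reads, so the split between the copies is uncertain. Sult3a1, an amine sulfotransferase, was at 4.56 to 23.0 CPM in B6 females and 0.442 to 3.76 in TH females, and at most 0.267 in males. Over all 15 sulfotransferases tested, 11 (73.3%) were called lower in males, against 9.93% of all genes. The 1 called higher, Sult2a8 (log2 0.49), was at 528 to 806 CPM in males and 393 to 618 in females.

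Female P450 genes followed. Cyp2b9 was at 464 to 663 CPM in B6 females and 150 to 574 in TH females. TH males were at 1.10 to 3.42 and B6 males at 4.86 to 133, where replicates 5 and 6, at 133 and 73.1, stood above the other 4 at 4.86 to 22.5. Their sample numbers are the last 2 of the B6 libraries. Its log2 difference was -5.14 ± 0.59 (adjusted p = 7.4e-07), and that of the related Cyp2b13 was -6.16 ± 0.34 (adjusted p = 5.6e-13). Over 250 bases before their starts in the RefSeq table, Cyp2b13 and Cyp2b9 differed at 2 positions.

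A1bg, a plasma glycoprotein, was at 40.8 to 145 CPM in B6 females and 34.8 to 1121 in TH females, against 0.667 to 2.89 in TH males and 0.815 to 26.4 in B6 males. The sexes did not overlap, and the log2 difference was -5.95 ± 0.73 (adjusted p = 2.0e-06). Slc22a26, of the organic anion transporter family, was at 50.5 to 158 CPM in females and 0.366 to 28.2 in males and differed by -4.22 ± 0.40 (adjusted p = 3.8e-08), and Hao2, a peroxisomal hydroxyacid oxidase, by -3.13 ± 0.45. A1bg was at 34.8 to 509 CPM in TH females of the earlier run and 627 to 1121 in those of the later one, a difference that was not called (adjusted p = 0.13). In each of Cyp2b9, A1bg and Slc22a26, B6 male replicates 5 and 6 were the highest of the 12 males.

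Promoters of some of the genes that moved most are shown, chosen because they held at least 1 of 2 short motifs. TTCNNNGAA is the form of site bound by STAT factors, and ATTGAT (or ATCAAT on the other strand) lies in sites bound by Onecut1 and related factors. Both strands were read, in the 250 bases before each start in the RefSeq table on GRCm38.p6, where 9920 of the 15141 genes had an entry. TTCNNNGAA was present in 7.5% of all genes with an entry, in 4 of 66 genes (6.1%) higher in males by at least 2-fold and in 13 of 88 genes (14.8%) lower by at least 2-fold. ATTGAT was present in 5.0% of all, in 17 of 66 (25.8%) and in 9 of 88 (10.2%). All 10 major urinary protein promoters among the 66 held ATTGAT. These share sequence, and 7 of the other 56 (12.5%) held it. The count of a gene with several starts is 1 if any start held the motif. A match describes letters and not a bound site. Sequences are given 5′ to 3′ toward the gene, with matches to either motif in capitals. Many named genes with an entry held neither motif and are not shown. These were Hsd3b5, Nat8f5, Serpina12, Gstp1 and Cyp2d9, which rose, and Sult2a4, Sult2a5, Sult2a6, Cyp2b13, Cyp2b9, Cux2 and Cish, which fell. Hsd3b4, also not shown, rose and held ATTGAT alone. Of the genes shown, Mup21 rose and held ATTGAT alone, Bcl6 rose and held TTCNNNGAA alone, and A1bg, Sult3a1 and Slc22a26 fell and held both.
Mup21, chr4:62150842-62151091, minus strand: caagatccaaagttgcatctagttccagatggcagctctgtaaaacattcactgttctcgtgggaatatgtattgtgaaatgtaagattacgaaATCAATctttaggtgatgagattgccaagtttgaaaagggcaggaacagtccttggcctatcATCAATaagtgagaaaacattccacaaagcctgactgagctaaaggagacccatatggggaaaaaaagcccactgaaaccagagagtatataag
Bcl6, chr16:23981284-23981533, minus strand: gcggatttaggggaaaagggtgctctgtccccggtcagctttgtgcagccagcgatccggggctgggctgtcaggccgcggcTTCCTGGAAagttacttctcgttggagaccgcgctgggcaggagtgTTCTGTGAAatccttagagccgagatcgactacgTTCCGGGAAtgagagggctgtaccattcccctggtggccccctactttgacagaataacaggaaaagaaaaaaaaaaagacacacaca
A1bg, chr15:60921271-60921520, minus strand: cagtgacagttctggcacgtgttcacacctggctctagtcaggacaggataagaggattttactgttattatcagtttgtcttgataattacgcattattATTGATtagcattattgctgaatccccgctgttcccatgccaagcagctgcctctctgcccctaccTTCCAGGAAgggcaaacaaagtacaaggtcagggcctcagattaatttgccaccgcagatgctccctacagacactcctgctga
Sult3a1, chr10:33857472-33857721, plus strand: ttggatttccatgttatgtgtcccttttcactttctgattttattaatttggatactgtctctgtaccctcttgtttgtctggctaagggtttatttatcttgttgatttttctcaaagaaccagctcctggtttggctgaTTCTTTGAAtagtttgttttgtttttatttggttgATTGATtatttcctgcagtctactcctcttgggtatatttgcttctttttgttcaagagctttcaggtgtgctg
Slc22a26, chr19:7802668-7802917, minus strand: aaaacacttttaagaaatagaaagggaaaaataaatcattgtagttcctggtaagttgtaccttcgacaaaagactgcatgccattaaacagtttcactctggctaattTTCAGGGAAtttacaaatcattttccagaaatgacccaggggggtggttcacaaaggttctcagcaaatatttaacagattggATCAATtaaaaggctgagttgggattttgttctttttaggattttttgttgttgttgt

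Regulators of the programme differed as well. Bcl6, a repressor of female-biased genes, was at 41.7 to 132 CPM in B6 males and 26.7 to 130 in TH males, against 9.83 to 19.3 in B6 females and 11.1 to 33 in TH females. Its log2 difference was 2.22 ± 0.29 (adjusted p = 4.8e-06), and the sexes overlapped in TH but not in B6. Cux2, the repressor found in female liver, was at 2.13 to 37.8 CPM in females and 0.244 to 3.73 in males, a log2 difference of -3.88 ± 0.47 (adjusted p = 1.9e-06). The highest male was again B6 replicate 6, at 3.73 CPM. Trim24, a nuclear receptor cofactor, did not overlap between the sexes, with 29.7 to 63.8 CPM in females and 11.2 to 24.7 in males (log2 difference -1.21 ± 0.12, adjusted p = 4.6e-08). Tox, an HMG-box factor, differed by -1.45 ± 0.31 and Onecut1, which binds the ATTGAT motif, by -1.31 ± 0.39, and with the GC slope as a covariate the values were -1.23 ± 0.46 and -1.82 ± 0.64, with wider errors and no call (adjusted p = 0.14 and 0.11). Other factors moved less, such as Nr0b2 at 0.85, Foxa2 at -0.62 and Zbtb20 at 0.43. Of the 25 liver transcription factors tested, 6 (24%) were called higher and 10 (40%) lower in males, against 9.94% and 9.93% of all genes. With the GC slope as a covariate these fell to 2 and 3.

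Growth hormone receptor signalling genes were next. Of 16 tested, 5 (31.25%) were called lower and 1 (6.25%) higher in males, against 9.93% and 9.94% of all genes. Cish, a feedback inhibitor induced by Stat5, was at 6.35 to 57.6 CPM in B6 females and 7.94 to 49.0 in TH females, and at 2.18 to 9.53 in B6 males and 1.59 to 17.0 in TH males. The groups overlapped, and the log2 difference was -2.09 ± 0.39 (adjusted p = 4.3e-04). Socs2, another feedback inhibitor, differed by -1.42 ± 0.44 (adjusted p = 0.025) and Socs3 by -1.02 ± 0.34 (adjusted p = 0.036), both with wide overlap. None of the 3 was called with the GC slope as a covariate, at -1.43 ± 0.63 for Cish (adjusted p = 0.23), -1.93 ± 0.73 for Socs2 (adjusted p = 0.15) and -0.03 ± 0.51 for Socs3 (adjusted p = 0.99), so that the value shrank towards 0 for Socs3 and grew for Socs2. With the run of sample numbers as a covariate Socs2 was at -1.18 (adjusted p = 0.0501). The growth hormone receptor gene Ghr was at 533 to 648 CPM in males and 385 to 552 in females (log2 0.37 ± 0.05, adjusted p = 7.6e-06), and the prolactin receptor gene Prlr was lower in males by -0.69 ± 0.10 (adjusted p = 3.9e-05). The phosphatase gene Ptpn6 was lower by -0.21.

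Genes of the core pathway gave no call: Jak2 at 0.04, Stat5a at -0.01, Stat5b at 0.04 and Stat3 at 0.03. Igf1, the endocrine target of growth hormone, was at 656 to 808 CPM in B6 males, 776 to 1061 in TH males, 440 to 725 in B6 females and 653 to 1422 in TH females, and its log2 difference of 0.05 ± 0.12 was not called (adjusted p = 0.79). In TH females it was at 653 to 965 CPM in the earlier run and 1235 to 1422 in the later one (log2 0.75 ± 0.16, adjusted p = 4.1e-03), and the sex difference was called in neither run, at 0.18 ± 0.15 and -0.34 ± 0.18. Within the axis of 11 tested, Igfals, the acid-labile subunit that carries Igf1 in blood, was lower in males by -0.36 and Igfbp5 by -0.67. Esr1, the oestrogen receptor gene, was lower in males by -0.78 ± 0.18 (adjusted p = 2.8e-03). Srd5a1, a steroid 5-alpha-reductase, was higher by 0.75, and Cyp17a1, a steroid 17-alpha-hydroxylase, was lower by -3.00 ± 0.28.

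Families of drug and steroid metabolism split by sex in different ways. Of 74 cytochrome P450 genes tested, 22 were called higher and 22 lower in males, against 9.94% and 9.93% of all genes. The falls included Cyp2a4 at -1.92 and Cyp2c39 at -1.81, and the fatty acid hydroxylases Cyp4a14 at -1.65 and Cyp4a10 at -1.61. The rises included Cyp2d12 at 1.78, Cyp2u1 at 1.67 and Cyp7b1, the oxysterol hydroxylase, at 1.65, which with the GC slope as a covariate was 1.56 ± 0.48 and not called (adjusted p = 0.067). With that covariate 10 P450 genes were called higher and 17 lower. The UDP-glucuronosyltransferases leaned to males, with 13 of 18 higher, such as Ugt2b38 at 1.10 and Ugt2b1 at 0.88, and 2 lower, Ugt1a5 and Ugt1a1. With the GC slope as a covariate 6 were higher and 1 lower. The flavin monooxygenases leaned to females, with 4 of 5 lower in males, among them Fmo2 at -1.66, and Fmo5 higher at 0.42. Of 22 glutathione transferases 8 were higher and 6 lower, and Gstt3 at -1.62 was the largest fall.

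Secreted hepatocyte proteins were higher in males in several lists, in shares to be read against 9.94% higher and 9.93% lower over all genes. Of 16 clade A serpins tested, 10 (62.5%) were called higher, among them Serpina1e at 1.32 ± 0.14 and Serpina3k at 0.79. The corticosteroid carrier Serpina6 was the 1 (6.25%) called lower, at -0.70. Of 26 complement genes 13 (50%) were called higher and none lower. They included the terminal components C6 at 2.06, C9 at 1.30, C8a at 1.10 and C8b at 0.74. With the GC slope as a covariate 7 were called, and without the libraries with muscle transcripts 8. Among 25 acute phase and iron genes, Saa1, serum amyloid A, was higher at 1.79 ± 0.27, and Hamp2, a copy of the iron hormone hepcidin, was lower at -1.61 ± 0.27, as was Orm3, an orosomucoid, at -2.18. The hepatocyte markers Alb and Apoa1 moved the same way as these lists, at 0.37 and 0.47, and their part in them was not tested.

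Metabolic and stress lists had calls in one or both directions at 5 weeks, in shares to be read against 9.94% higher and 9.93% lower over all genes. Of 20 lipogenic genes, Fasn at -0.66, Acaca, Dgat1 and Fads1 were lower (20%) and the desaturases Scd1 at 0.99 and Scd2 at 0.81 higher in males, and none was called with the GC slope or without the muscle-bearing libraries. Of 26 fatty acid oxidation genes 7 (26.9%) were lower, and 5 with the GC slope, led by the acyl-CoA thioesterase Acot3 at -3.58 ± 0.45, and 2 higher. Of 23 cholesterol synthesis genes 4 (17.4%) were lower, and 1 with the GC slope. The counts of the next 3 lists moved with the libraries and settings used. Of 21 genes of the unfolded protein response 4 (19.0%) were higher, but 8 without female TH replicate 4, 13 with the run of sample numbers as a covariate, 1 without the muscle-bearing libraries and 0 with the GC slope. Of 23 interferon response genes 4 (17.4%) were lower in males, but 10 without that female library, 2 with the run as a covariate and 0 with the GC slope or by DESeq2. Of 24 proliferation genes Birc5 alone was called, at 0.75 (adjusted p = 0.046), with no member called without that library and 10 with the run as a covariate. Of 10 stellate cell markers 3 (30%) were lower in males: Des at -1.45 and Acta2 at -1.12, which muscle also expresses, and Ecm1 at -0.44. Without the muscle-bearing libraries, 4 of 5 of them female, Des was at -0.59 and still called and Acta2 was at -0.85 and not (adjusted p = 0.13). Ecm1 was at -0.36 there and still called (adjusted p = 0.011). With the GC slope none of the 3 was called (adjusted p = 0.27 for Des, 0.40 for Acta2 and 0.10 for Ecm1).

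**Figure D2:**
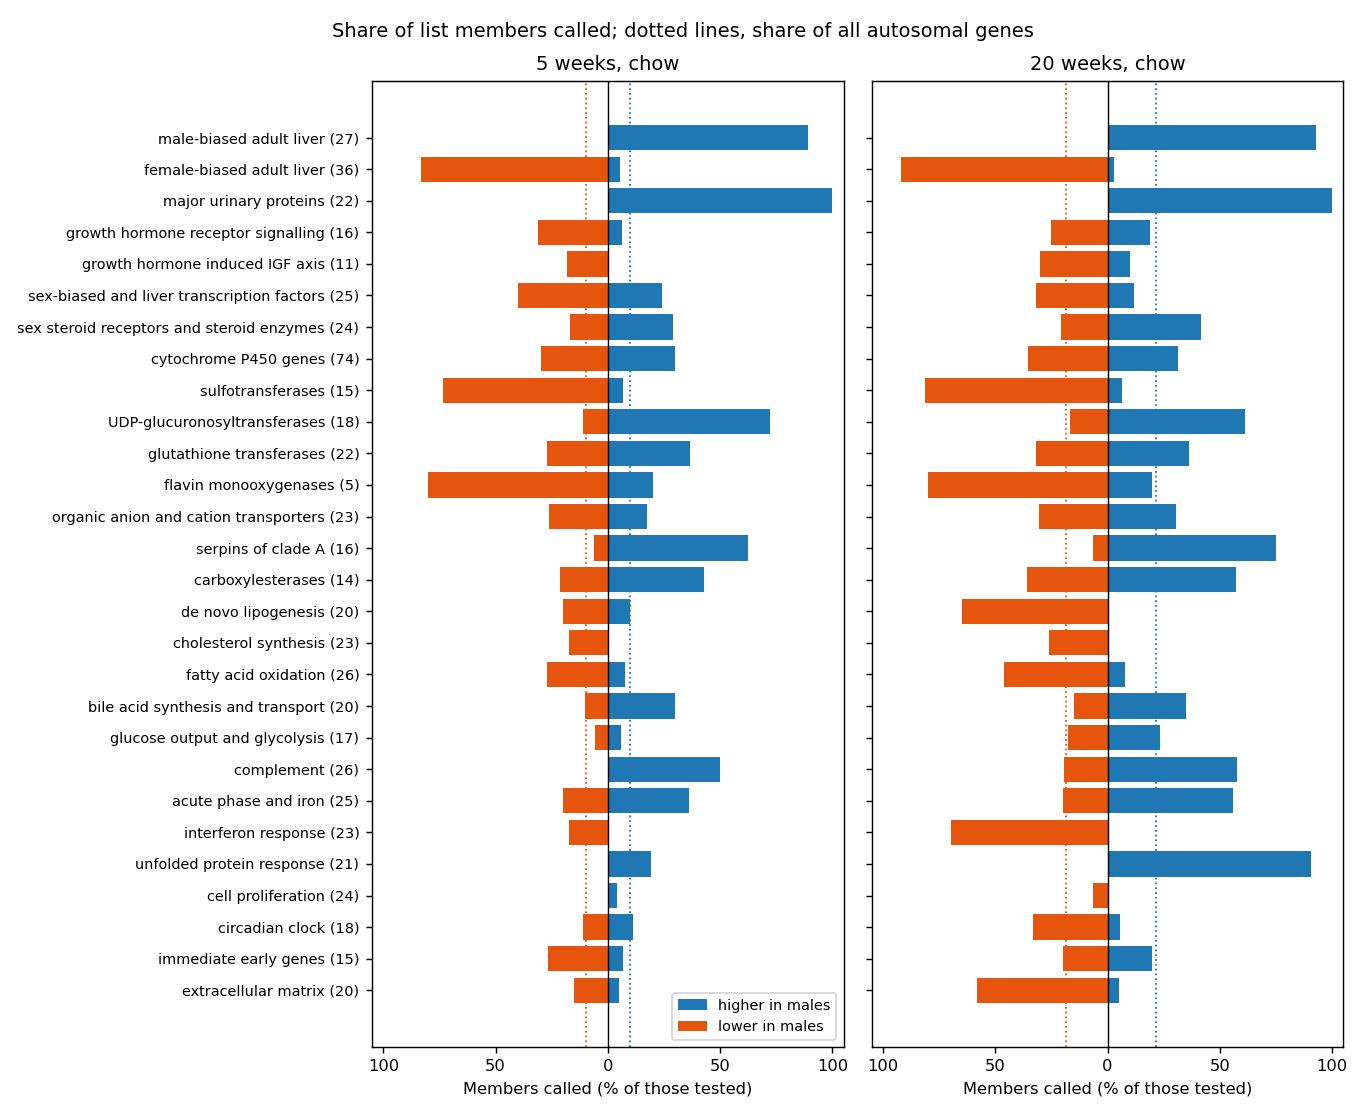
Share of each list's tested members called higher (blue, right) or lower (orange, left) in males at 5 and at 20 weeks on chow, with the number tested at 5 weeks in brackets. Dotted lines mark the share of all autosomal genes called in that direction, and the major urinary proteins were called in full at both ages.

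Few genes were called for a sex difference that itself differed between strains. The test of sex by strain called 52 of 15141 genes, 0.343%, with 1505 at an unadjusted p under 0.05. Of the 52, 31 had the higher male-minus-female value in TH and 21 in B6. Few calls do not show that the strains were alike in the other genes. DESeq2 called 137, and 58 were called with the run of sample numbers as a covariate. Within the strains 1190 genes were called in B6 and 1683 in TH, and these counts were not compared by a test.

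Cyp3a41a and its copy Cyp3a41b, steroid-metabolising P450 genes, were the highest of the sex-by-strain differences. Cyp3a41a was at 105.3 to 130 CPM in B6 males and 237.5 to 1311 in B6 females, but at 458 to 587 in TH males and 260 to 377 in TH females. The sexes stood in opposite order, with log2 differences of -2.56 in B6 and 0.75 in TH, and the difference between them was 3.30 ± 0.32 (adjusted p = 9.7e-07). Ugt3a1 and Ugt3a2, glycosyltransferases, were higher in males in TH alone, at log2 2.02 and 1.92 against 0.10 and -0.09 in B6, and their level was far lower in TH. Ugt3a2 was at 6.92 to 10.49 CPM in TH males and 1.64 to 3.44 in TH females, against 337 to 419 in B6 of either sex. The sex-by-strain values were 1.92 ± 0.16 and 2.02 ± 0.16 (adjusted p = 7.6e-08 and 5.2e-08).

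Col27a1, a fibrillar collagen gene, differed between the sexes by 2.02 in TH and 0.52 in B6 (sex by strain 1.5 ± 0.23, adjusted p = 1.8e-03). In the other direction, Cyp4a12a and Cyp4a12b differed by 5.28 and 5.29 in B6 and by 2.21 and 2.40 in TH. The sex-by-strain values of -3.07 ± 0.58 and -2.89 ± 0.53 (adjusted p = 0.011 and 9.6e-03) went with the high levels in TH females given above. Slc22a26 fell by 3.28 in B6 and by 6.55 in TH males. Nipal1, a magnesium transporter gene, and Ugt2b37 fell in TH males by 2.52 and 2.00 against -0.28 and 0.41 in B6. The values for Slc22a26, Nipal1 and Ugt2b37 stayed near the same size but missed the threshold with the GC slope as a covariate (-3.28, -2.25 and -2.37, adjusted p = 0.056, 0.056 and 0.055), those for Nipal1 and Ugt2b37 missed it without female TH replicate 4 (adjusted p = 0.052 and 0.053), and that for Slc22a26 missed it with the replicate block (adjusted p = 0.065). With the run of sample numbers as a covariate Nipal1 missed it as well (-2.18, adjusted p = 0.052).

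**Figure D3:**
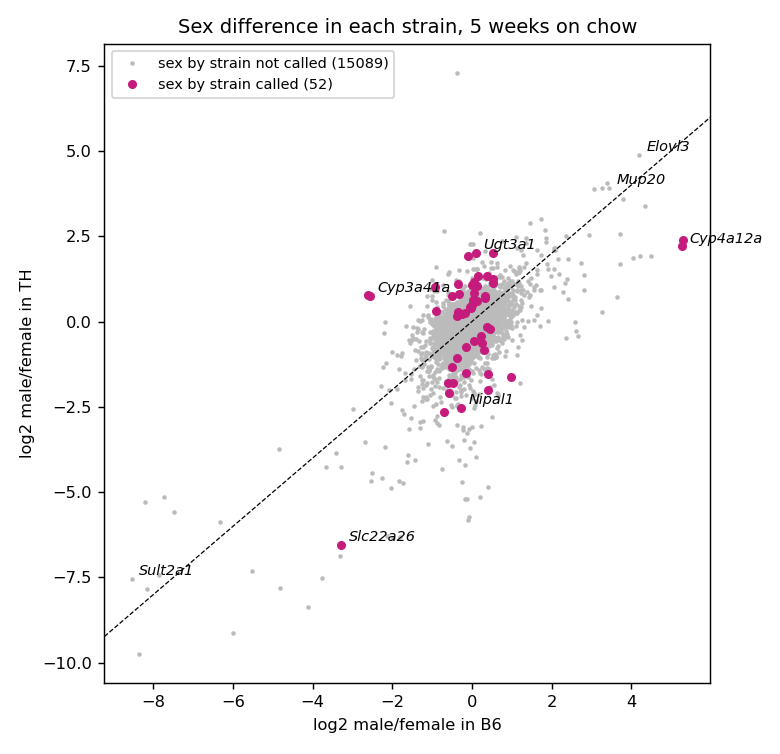
Male minus female log2 difference of each autosomal gene at 5 weeks on chow in B6 (horizontal) and TH (vertical), with the 52 genes called for sex by strain in magenta and a dashed line of equal difference. Cyp3a41a lay on opposite sides of 0 in the 2 strains, and Cyp4a12a lay below the line.

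Averaged over the lists, the libraries lay along a line from female to male. The mean log2(CPM + 0.5) of the 27 male-biased genes was 4.65 to 5.53 in B6 females, 5.73 to 6.70 in TH females, 6.22 to 7.39 in B6 males and 7.65 to 8.12 in TH males. The mean of the 36 female-biased genes ran the other way: 5.73 to 6.56, 4.67 to 5.84, 3.64 to 4.97 and 2.99 to 3.38 in the same order of groups. Within a strain the sexes did not overlap on either mean. Between strains they did, and TH female replicates 4 and 5 exceeded B6 male replicates 5 and 6 on the male-biased mean. TH females were at 5.73 to 5.97 on that mean in the earlier run of sample numbers and 6.37 to 6.70 in the later one. B6 male replicates 5 and 6 were at 6.397 and 6.22, against 6.95 to 7.39 in the other 4. The major urinary protein genes varied most in B6 males, with a median standard deviation over genes of 0.80 log2 units between the 6 libraries, against 0.31 in TH males and 0.26 in B6 females.

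The same means were read in mice at 20 weeks. TH males at 5 weeks, at 7.65 to 8.12 on the male-biased mean, overlapped TH males at 20 weeks, at 7.92 to 8.18. B6 males at 5 weeks, at 6.22 to 7.39, lay below all B6 males at 20 weeks, at 7.56 to 7.71. Females lay farther from the male range at 20 weeks. There B6 females were at 4.19 to 4.44 and TH females at 4.58 to 5.39 on the male-biased mean, each range below its 5-week range. On the female-biased mean TH females were at 4.67 to 5.84 at 5 weeks and 5.96 to 6.77 at 20 weeks, while B6 females had overlapping ranges of 5.73 to 6.56 and 6.18 to 6.56.

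**Figure D4:**
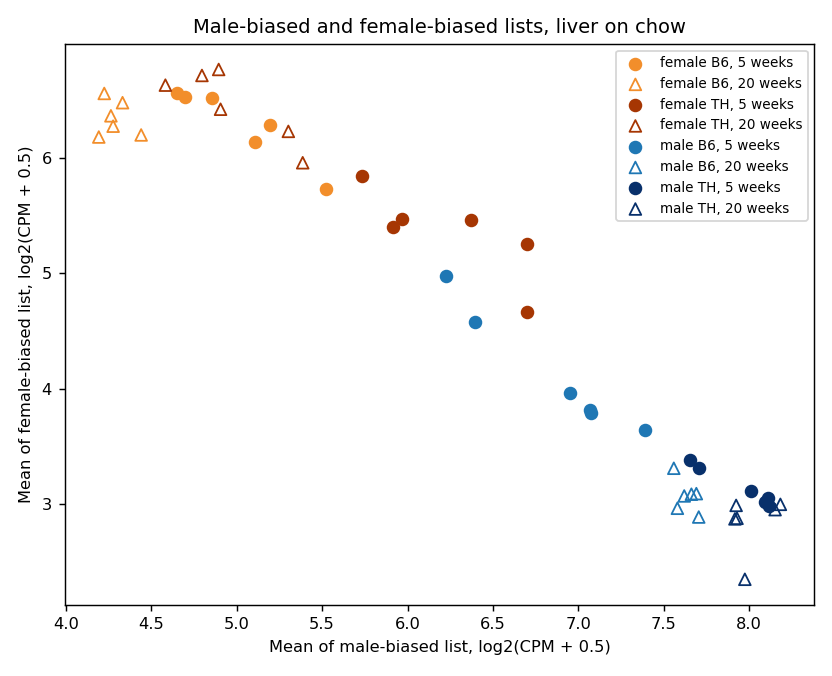
Mean log2(CPM + 0.5) of the male-biased list (horizontal) and of the female-biased list (vertical) in each liver library on chow, filled circles at 5 weeks and open triangles at 20 weeks, coloured by sex and strain. TH females and B6 males at 5 weeks lie between the 20-week females at upper left and the 20-week males at lower right, 5 of the 6 B6 females lie within the range of 20-week TH females, and TH males overlap the 20-week males.

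The same was read gene by gene, in levels that were compared without a test. Cyp4a12a was at 79.1 to 387 CPM in TH females at 5 weeks and at 0.0640 to 17.3 at 20 weeks, while TH males held 1009 to 1161 and 798 to 1244. In B6 males it was at 161 to 402 at 5 weeks and 592 to 696 at 20 weeks. Mup20 in B6 males was at 1080 to 2596 CPM at 5 weeks and 4670 to 8801 at 20 weeks, without overlap. Cyp2b9 in B6 males was at 4.86 to 133 CPM and then at 0.627 to 1.44. Cux2 in females was at 2.13 to 37.8 and then at 11.5 to 56.3. Of the 24 male-biased genes called at 5 weeks, B6 males had a higher median at 20 weeks in 20 and a lower one in 4, and in 8 all 20-week libraries lay above all 5-week ones. TH males had a higher median in 10 and a lower one in 14. Females had a lower median in 22 of the 24 in TH and in 21 in B6. The matching counts over all autosomal genes were not taken, so these counts describe the list alone. Age and anything else that separated the 2 sampling times cannot be told apart.

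Male-higher calls made up 21.6% of the 15132 autosomal genes tested at 20 weeks, and male-lower calls 18.7%. Of 1494 genes higher in males at 5 weeks and tested at both ages, 1177 (78.8%) were also called higher at 20 weeks, which is 36.3% of the 3245 called there. Of 1494 lower in males, 1022 (68.4%) were also called lower, 36.9% of the 2773 called at 20 weeks. The 2 sets share no library. There were 12 genes called in opposite directions. The 20-week calls fell from 6102 to 2362 with the GC slope as a covariate, and 70.8% of the genes higher and 65.8% of those lower in males at 5 weeks in that fit were called the same way at 20 weeks.

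Genes with a difference of at least 2-fold at 20 weeks were read back at 5 weeks. Of 231 higher in males at 20 weeks, 159 (68.8%) were already called higher at 5 weeks, and the median of the ratio of the 5-week to the 20-week log2 difference was 46.9%. Of 367 lower in males at 20 weeks, 226 (61.6%) were called lower, with a median ratio of 49%. Among the 43 genes higher by a log2 difference of 3 or more, 41 were called at 5 weeks, and among the 44 lower by as much, 39. These genes were chosen on their 20-week values, which favours a larger difference at 20 weeks.

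The test of sex by age, 20 minus 5 weeks, called 1061 of 15739 genes, 6.74%, with 658 values above 0 and 403 below. With no filter on low counts it called 646. Of the male-biased list 21 members were called with a larger difference at 20 weeks and none with a smaller one, of the major urinary proteins 21 and none, and of the female-biased list 17 were called with a more negative difference. The highest values were Cyp4a12b at 4.70 ± 0.45, Cyp4a12a at 4.69 ± 0.49, Hsd3b5 at 4.34 ± 0.55, Obp2a at 4.05 ± 1.18 and Hsd3b4 at 3.27. Low values included Hao2 at -3.83, Slc22a26 at -3.19, Rgs16 at -2.96 and Cyp2b9 at -2.90. Rgs16, a regulator of G protein signalling, was not called at 5 weeks (log2 -0.39, adjusted p = 0.57).

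For other genes no change with age was called. Bcl6 differed by 2.22 at 5 weeks and 2.48 at 20 weeks (sex by age 0.23, adjusted p = 0.80), and Ghr by 0.37 and 0.43 (adjusted p = 0.78). The Sult2a1 difference was -8.24 and then -10.06 (adjusted p = 0.21). A p that misses the threshold does not show equality. Outside the drug-metabolism families 19 of 21 unfolded protein response genes were called higher in males at 20 weeks against 4 at 5 weeks. Over all genes 21.6% were called higher at 20 weeks and 9.94% at 5 weeks. Of 20 lipogenic genes 13 were called lower against 4, where all genes gave 18.7% and 9.93%. The 5-week counts moved with the settings, as given above, and the 20-week list counts were not taken with the GC slope. The sex-by-age test called 4 and 6 members of these lists, against 6.74% of all genes.

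**Figure D5:**
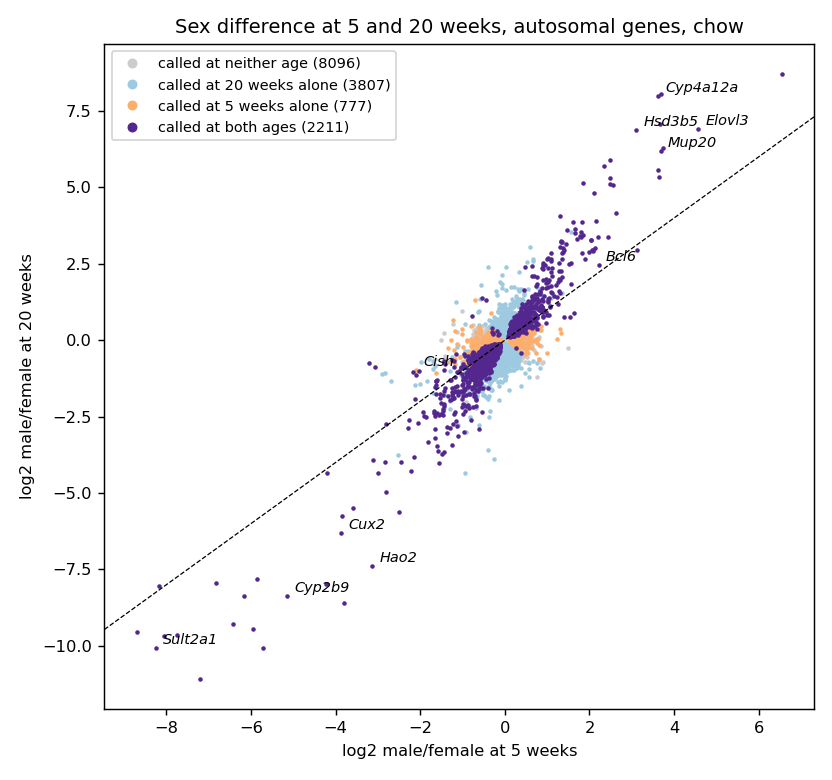
Male minus female log2 difference of each autosomal gene tested at both ages, at 5 weeks (horizontal) and at 20 weeks (vertical) on chow, coloured by the ages at which it was called, with a dashed line of equal difference. Cyp4a12a, Hsd3b5 and Hao2 lie farther from 0 at 20 weeks, and Bcl6 and Cish lie near or inside the line.

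A separate set of 5-week mice, after 1 week of high-fat diet, gave the same contrast. Male-higher calls were 15% and male-lower calls 15.6% of 15077 genes. Of the male-biased list 25 members and of the major urinary proteins all 22 were higher in males, and of the female-biased list 31 were lower. Of the 1497 genes higher on chow and tested on both diets, 984 (65.7%) were also called higher on high-fat diet, 43.7% of the 2252 called there, and of 1481 lower on chow 896 (60.5%) were also called lower, 38.4% of 2336. A further 13 of the genes higher and 8 of those lower on chow were called the opposite way. These sets share no library either. The high-fat calls fell from 4619 to 268 with the GC slope as a covariate, and 22.4% of the genes higher and 21.3% of those lower on chow in that fit were called the same way.

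The test of sex by diet called 378 of 15642 genes, 2.42%, and 767 without the libraries that stood apart, among them 1 B6 male on high-fat diet in which Mup7 was at 54.7 CPM against 899 to 5680 in B6 males on chow. Mup20 differed between the sexes by 5.40 on high-fat diet and 3.68 on chow (difference 1.72 ± 0.29, adjusted p = 2.6e-04). Its levels in TH males were 9070 to 11494 CPM on high-fat diet and 2285 to 3804 on chow. Cyp3a41a differed by -3.04 on high-fat diet and -0.90 on chow (difference -2.18 ± 0.35, adjusted p = 1.8e-04), with TH males at 130 to 173 CPM on high-fat diet and 458 to 587 on chow. In edgeR's test with strain as a covariate the chow value was not called (adjusted p = 0.13), and with 1 mean per group it was (-0.91, adjusted p = 2.2e-04). It averages strains in which the sexes stood in opposite order, as given above, and so describes neither. Esr1 and Prlr were further below the female level on high-fat diet, by -0.93 ± 0.21 and -0.71 ± 0.16 relative to chow.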

How the data were processed

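The data are gene-level counts from poly(A)-selected, stranded TruSeq liver libraries, made from RNA with a RIN above 8 and deposited by the authors as raw counts. Per the submitters' processing notes reads were handled with HISAT2 2.2.1 and Trimmomatic 0.39, and SAMtools, DESeq2 and DESeq are also listed, with build GRCm39; neither the counter nor its annotation and strand setting is given in those notes. Gene symbols came from GENCODE M21 for 52125 of 56980 identifiers.

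From these counts, edgeR 4.0.16 (R 4.3.3) with TMM factors and filterByExpr (minimum count 10, minimum total 15) fitted a quasi-likelihood model of sex with strain as a covariate, and of sex by strain, age or diet. Differences are log2 male minus female ± SE, where the SE is the absolute log2 difference divided by the square root of the test's F value. Calls needed a Benjamini-Hochberg adjusted p under 0.05 over all genes tested, and autosomal genes are printed. CPM are TMM-scaled over the 96 liver libraries. List means used log2(CPM + 0.5). Intervals and floors cover counting error only. The p-values weigh each difference against the spread between these samples and treat the samples as independent.

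The members and lists were chosen with earlier results of these data known. Named genes are the 12 largest rises and falls that had the same sign in both strains and averaged log2 CPM 1 or more, the 5 highest and lowest for sex by strain and by age, the 2 to 4 largest of each list, and the growth hormone axis; others were chosen after their values were seen, and some genes the rule takes are not reported here. On simulated counts for the sex difference at 5 weeks on chow (15711 genes), 97 of 100 genes changed by log2 1, 70 of 100 changed by 0.5 and 7 of 15511 unchanged genes were called. The simulated libraries held no difference in GC slope, strain, run or muscle transcripts. These rates therefore do not cover such effects in the real libraries. Alternatives were DESeq2 1.42.0, RLE factors, no filter, the replicate block, all 96 libraries, 1 mean per group, the GC slope and each library left out; thinned counts, libraries left out for muscle transcripts or for standing apart, the run of sample numbers (parted by a gap over 10) and the GC slope in the other comparisons were added after seeing the data.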

Additional observations from a re-analysis of the deposited data

Results flagged for a closer look

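Over 54 genes, each read in 4 groups of 6 libraries, 13 of these sets had 1 library whose gap to its nearest neighbour took an unusually large share of the range; chance gives about 1 in 20 sets. Among males these shares were 0.75 for Cyp21a1 (B6 replicate 6), 1 for Sult2a4 (B6 replicate 4), 0.64 for Stat5b (B6 replicate 2), 0.84 for Acta1 (B6 replicate 4), 1 for Sult3a1 (TH replicate 2), and 0.746 for Prlr and 0.69 for Esr1 (both TH replicate 1). Among females they were 0.65 for Obp2a (B6 replicate 5), 0.74 for Socs3 (B6 replicate 1), 0.80 for C4a (TH replicate 4), and 0.66 for Sult2a1, 0.66 for Sult2a4 and 0.71 for Sult3a1, all with B6 replicate 2 lowest. The male shares for Sult2a4 and Sult3a1 rest on 2 counts in 1 library each, and that for Obp2a on at most 3 counts a library.

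The sex difference changed with age, by edgeR's test of sex by age, in several genes. Values above 0, as log2 differences at 20 minus 5 weeks, were 2.38 for Elovl3, 2.49 for Mup20, 2.05 for Mup7, 1.73 for Mup21, 4.69 for Cyp4a12a, 4.70 for Cyp4a12b, 4.34 for Hsd3b5, 3.27 for Hsd3b4, 0.82 for Gstp1, 0.87 for Gstp2, 1.71 for Cyp2d9, 1.85 for Cyp7b1, 0.87 for C6, 4.05 for Obp2a and 0.61 for C4a. Values below 0 were -2.38 for Cyp2b13, -2.90 for Cyp2b9, -3.19 for Slc22a26, -3.83 for Hao2, -1.88 for Hamp2, -0.97 for Prlr, -0.70 for Trim24, -0.75 for Esr1, -1.43 for Nipal1 and -2.96 for Rgs16.

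By the test of sex by diet, high-fat minus chow, the log2 values were 1.72 for Mup20, 1.95 for Cyp4a12b, 0.65 for Gstp1, 0.67 for Gstp2, -2.18 for Cyp3a41a, -2.16 for Cyp3a41b, -0.71 for Prlr and -0.93 for Esr1. By the test of sex by strain, TH minus B6, they were -3.07 for Cyp4a12a, -2.89 for Cyp4a12b, 1.19 for C4a, -3.27 for Slc22a26, 3.30 for Cyp3a41a, 3.40 for Cyp3a41b, 1.92 for Ugt3a1, 2.02 for Ugt3a2, 1.5 for Col27a1, -2.41 for Ugt2b37 and -2.25 for Nipal1.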

How the results depend on the processing

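The 3009 calls at 5 weeks on chow became 2998 with RLE factors, 3083 with DESeq2, 2428 with no filter, 2938 with all 96 liver libraries and 2662 with thinned counts, 3411 with the run of sample numbers as a covariate, and 2602 to 3143 when each library was left out. With the GC slope as a covariate they fell to 647, and the high-fat and 20-week contrasts fell from 4619 to 268 and from 6102 to 2362. Without the libraries with muscle transcripts the count was 1533, with 19 libraries in the fit. The sex-by-strain count of 52 was 137 with DESeq2 and 58 with the run, the sex-by-age count of 1061 was 646 with no filter, and the sex-by-diet count of 378 was 767 without the libraries that stood apart. The cause of these shifts was not tested. Igf1 and Stat5b, which were not called, changed sign: Igf1 to -0.11 and Stat5b to -0.075 with the GC slope, Igf1 to -0.12 and Stat5b to -0.072 without the muscle-bearing libraries, and Igf1 to -0.0013 without female B6 replicate 6 (Igf1 ran from there to 0.11 as libraries were left out in turn). Same-numbered libraries did not deviate together: 6 of 36 pairs correlated over 0.1, from -0.25 to 0.29. With the replicate block 2904 genes were called, 52 for sex by strain, 4383 on high-fat diet, 6096 at 20 weeks, 1071 for sex by age and 423 for sex by diet. Male libraries were the shallower ones.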

Other observations

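Immediate early and clock genes respond to handling and time of day, and at 5 weeks their calls are to be read against the 9.94% higher and 9.93% lower of all genes. Of 15 immediate early genes 4 (26.7%) were called lower in males, Atf3 at -1.33, Myc at -1.26, Klf2 at -0.74 and Klf4 at -0.52, and Egr1 higher at 1.33. Of 18 clock genes Per3 at -1.53 and Per2 at -0.73 were lower and Nfil3 at 0.65 and Clock at 0.43 higher, 11.1% in each direction and near the shares of all genes. As libraries were left out in turn, the clock genes called lower ran from 1 to 5 and the immediate early genes from 2 to 5, with 0 to 2 of the latter called higher. No member of either list was called with the GC slope as a covariate.

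Meg3 and Rian, maternally expressed noncoding RNAs of one imprinted region, were among the 12 genes called in opposite directions at the 2 ages and were chosen after their values were seen. Meg3 differed by -0.45 at 5 weeks and by 1.33 at 20 weeks (sex by age 1.94, adjusted p = 6.1e-04), and Rian by -0.55 and 1.37 (sex by age 2.17, adjusted p = 3.6e-04).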
